A study of Mus musculus with 6 samples.

Results

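The enzymes that make and use glutathione or remove peroxides and superoxide were followed in the mouse uterine epithelium. Genes were taken as measured where a probe set listed a single gene symbol, and members were those whose symbol begins with Gsta, Gstm, Gstk, Gsto, Gstp, Gstt, Gstz, Mgst, Gpx or Prdx, together with Gclc, Gclm, Gsr, Gss, Txn1, Txnrd1, Sod1, Sod2, Sod3, Cat and Nqo1. This gave 45 genes of 18193 measured, read by 75 of 34945 probe sets, and where a gene had several probe sets the one brightest on average (log2 scale) stood for it. They comprised 23 glutathione S-transferases, 8 glutathione peroxidases, 3 peroxiredoxins, 4 enzymes of glutathione synthesis and recycling, thioredoxin with its reductase, and 5 further enzymes, which are 3 superoxide dismutases, catalase and the quinone reductase Nqo1. Prdx1 was not among them, because its probe sets list another symbol as well. Prdx5 and Prdx6 were not among them either, so the peroxiredoxins here are Prdx2, Prdx3 and Prdx4.

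Female mice of 3 groups were compared on Affymetrix 3′ expression arrays, with 2 arrays each: Sox17 heterozygous (Sox17GFP/+) mice on day 4 of pregnancy (samples 253 and 281), WT mice on day 4 (277 and 284) and WT mice on day 1 (302 and 303). Day 1 was the day of the vaginal plug, and no heterozygous mice of day 1 were analysed here. The epithelium was peeled from uterine pieces with pancreatin and dispase. Sox17 is a transcription factor of the endometrial epithelium. Nothing in the labels says how many animals a sample holds, so the p-values measure the spread between these samples, which may be technical.

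Glutathione is a small thiol made in sequential steps by glutamate-cysteine ligase (catalytic subunit Gclc, modifier subunit Gclm) and glutathione synthetase (Gss), and returned to its reduced form by glutathione reductase (Gsr). Glutathione S-transferases join it to reactive compounds, glutathione peroxidases spend it on peroxides, and peroxiredoxins draw on thioredoxin for the same task. Superoxide dismutases turn superoxide into hydrogen peroxide, which catalase breaks down. On day 1 the uterine epithelium of the mouse is under the preovulatory estrogen, and by day 4 under progesterone, when it becomes ready for the embryo.

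Signals are on a linear scale on which the trimmed mean of every array was 500, and changes are differences of log2(signal + 1). The median signal over all probe sets was 66.2 to 78.0 on 5 arrays and 137.6 on WT day 4 array 277, which had 27.0% of probe sets under 50, against 41.6% to 44.6% on the other arrays. Sox17 signals were 30189 and 28810 in heterozygous mice, against 34794 and 35060 in WT mice on day 4 (log2 change -0.24 ± 0.19, SE, limma adjusted p = 0.586), and whether its probe set also reads the GFP allele is not known here. The 8 epithelial markers (Epcam, keratins, claudins and Cdh1) summed to 147503 to 160340 on every array, so the labelled tissue was borne out. The 10 stromal markers summed to 1136 and 1676 in heterozygous mice, 2410 and 3248 in WT mice on day 4, and 13151 and 18920 in WT mice on day 1, and none was at 0 on any array. Among them Fbln1 passed the test as lower in WT mice on day 4 than in WT mice on day 1. It made up much of the day 1 sums, with 9585 and 9945 there, against 618 and 379 in WT mice on day 4. Col1a1, Hoxa11, Pdgfra and Thy1 changed the other way (0.06, 1.09, 1.15 and 0.54) and did not pass. Other markers that passed between the days in WT mice were Cd68, with 224 and 157 on day 4, against 6401 and 5746 on day 1, Acta2 (-1.60 ± 0.23, limma adjusted p = 0.0230) and S100a9 (-2.16 ± 0.37, limma adjusted p = 0.0324), which fell, and Lyz2, C1qa, Vwf and Dnah5, which rose. Ovgp1 also rose, with 5497 and 7309 on day 4, against 165 and 288 on day 1 (4.86 ± 0.47, limma adjusted p = 0.0109). The epithelial marker Cldn3 rose as well (1.39 ± 0.21, limma adjusted p = 0.02535). The part of these differences in the results below was not tested.

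The mu class glutathione S-transferases gave the 4 largest changes between the days among the 45 genes as fitted. With a pseudocount of 32 the change of Gstm6 was 3.40, below the 3.66 of Gsta2, and with the mean of probe sets that of Gstm7 was 3.27, below the 4.32 of Gsta2. They lie side by side on chromosome 3 in the order Gstm5, Gstm7, Gstm6, Gstm3, Gstm2, Gstm1 and Gstm4, with Gstm5 on the plus strand and the other 6 on the minus strand. RefSeq promoters (GRCm38.p6, 250 bases before to 50 after the start, read 5′ to 3′ on the gene's strand) are shown for Gstm2, which had the smallest adjusted p of the class, for Gstm1, which had the largest change, for Gstm7, which rose and had its highest signals in heterozygous mice, and for Gstm5, the neighbour that did not rise. They span chr3:107986371-107986670, chr3:108017924-108018223, chr3:107931768-107932067 and chr3:107895604-107895903, in that order. Capitals mark a match on either strand to one of 3 searched words, which are the NRF2 element TGACNNNGC, the steroid receptor half-site AGAACA and the SOX core ACAAT.
Gstm2: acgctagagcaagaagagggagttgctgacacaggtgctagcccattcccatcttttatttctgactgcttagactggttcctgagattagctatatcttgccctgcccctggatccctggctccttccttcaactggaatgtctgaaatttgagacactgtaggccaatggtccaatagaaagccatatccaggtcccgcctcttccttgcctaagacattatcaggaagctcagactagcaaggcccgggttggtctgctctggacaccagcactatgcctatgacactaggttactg
Gstm1: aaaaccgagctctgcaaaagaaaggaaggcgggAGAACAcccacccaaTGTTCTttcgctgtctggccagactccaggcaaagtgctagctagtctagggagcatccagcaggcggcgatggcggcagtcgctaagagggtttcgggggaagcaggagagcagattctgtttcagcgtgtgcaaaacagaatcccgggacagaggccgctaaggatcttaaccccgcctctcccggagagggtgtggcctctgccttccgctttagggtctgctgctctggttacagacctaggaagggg
Gstm7: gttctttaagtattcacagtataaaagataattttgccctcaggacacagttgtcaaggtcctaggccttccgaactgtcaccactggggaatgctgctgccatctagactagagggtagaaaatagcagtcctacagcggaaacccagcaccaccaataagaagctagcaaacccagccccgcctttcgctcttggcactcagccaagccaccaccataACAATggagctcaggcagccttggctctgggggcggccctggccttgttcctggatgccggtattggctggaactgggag
Gstm5: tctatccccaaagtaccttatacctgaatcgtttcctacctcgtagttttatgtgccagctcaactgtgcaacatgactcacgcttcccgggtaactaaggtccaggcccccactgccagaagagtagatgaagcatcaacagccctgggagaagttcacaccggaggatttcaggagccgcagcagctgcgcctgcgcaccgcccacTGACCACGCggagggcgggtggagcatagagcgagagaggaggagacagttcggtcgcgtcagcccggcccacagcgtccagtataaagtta
None of the 3 words is in the Gstm2 window. Gstm1 holds the steroid receptor half-site at -217 and, on the opposite strand, at -202 from the start, Gstm7 a SOX core at -30, and Gstm5 an NRF2 element at -42. These are short words found in many promoters: the NRF2 element was in 12.5% of 27025 promoters of this length, the half-site in 19.0% and the SOX core in 31.6%. Of the 40 members with a listed promoter, 5 held the NRF2 element (Gclm, Gsta3, Gstm5, Mgst1 and Sod1), 7 the half-site and 10 the SOX core. A match is a description of the sequence, not a binding site. Gsta4, Gstt2, Gclc, Gsr and Sod3 had no listed promoter.

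WT day 4 was set against WT day 1 to ask how the enzymes change as pregnancy proceeds. Of the 45 genes, 12 rose and 3 fell on day 4 (limma, Benjamini-Hochberg adjusted p under 0.05), and 30 did not pass. Over all genes 7.58% were called higher and 5.73% lower, and of the members 26.7% and 6.67%. Of the members, 41 had a mean signal of at least 50, and among the 12811 genes of at least that signal 9.6% were higher and 7.83% lower. The median log2 change of the members was 0.33, against 0.30 over all genes. The higher calls were 4 mu class, 2 alpha class and 1 pi class transferase, with Gpx2, Cat, Nqo1, Sod1 and Gclc. The lower calls were Gstt2, Mgst3 and Prdx4. In bulk tissue, fewer cells of a type and less RNA per cell cannot be told apart.

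**Figure D1:**
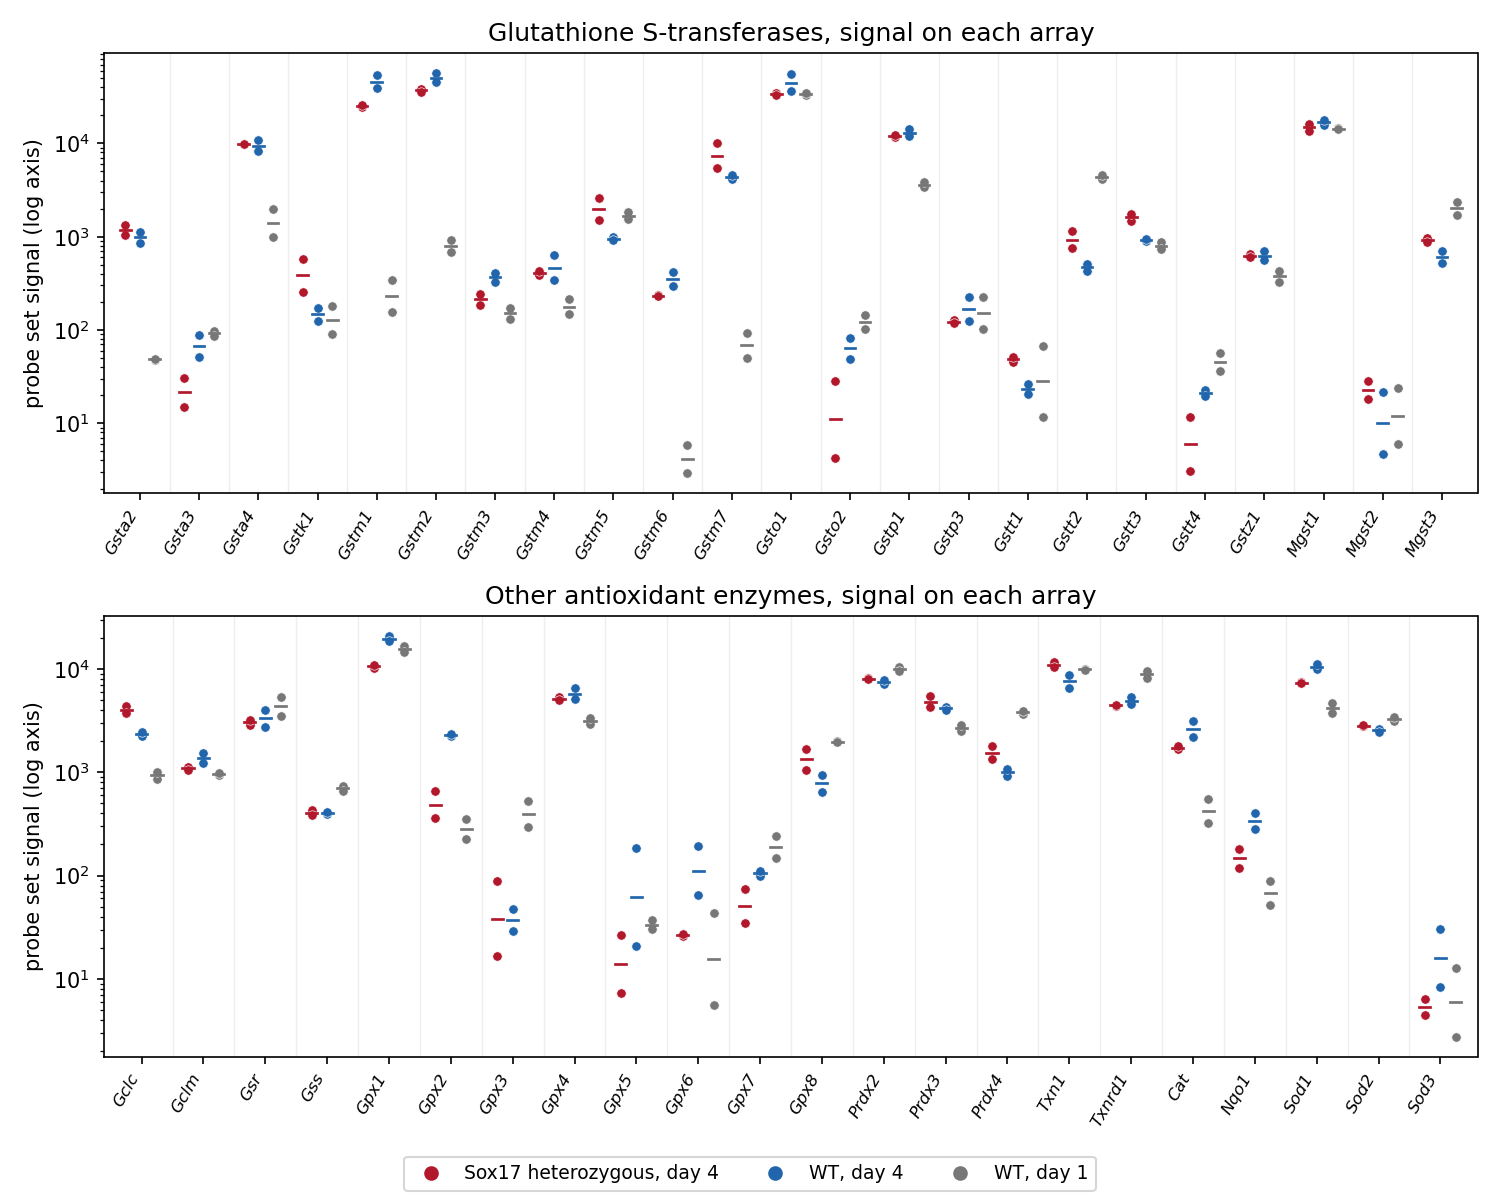
Signal of each of the 45 genes on each of the 6 arrays (log axis), with the transferases above and the other enzymes below. Points are arrays, coloured by group, and the bar is the mean of the 2 log2 values. Gstm1, Gstm2, Gstm6 and Gstm7 show the widest gap between both day 4 groups and WT day 1, and Gpx2 is high in WT mice on day 4 alone.

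Among the mu class transferases, which conjugate glutathione to hydrophobic electrophiles, 4 of 7 rose on day 4. Gstm1 had signals of 54580 and 38800 in WT mice on day 4, against 157 and 342 in WT mice on day 1 (log2 change 7.63 ± 0.45, SE, limma adjusted p = 0.00646), a ratio of mean signals of 187. Gstm2 had 56764 and 45168 on day 4, against 689 and 913 on day 1 (5.99 ± 0.25, limma adjusted p = 0.00524). For both genes every day 4 array lay far above every day 1 array.

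Gstm7 had 4173 and 4542 on day 4, against 49.9 and 93.9 on day 1 (5.97 ± 0.46, limma adjusted p = 0.00822). Gstm6 had 416 and 297 on day 4, against 2.91 and 5.80 on day 1 (6.10 ± 0.36, limma adjusted p = 0.00646), and its day 1 signals are so low that its fold is uncertain. The arrays of the groups did not overlap for any of the 4 genes, which by itself is weak evidence with so few arrays a group. Gstm3 and Gstm4 missed the threshold, with log2 changes of 1.28 ± 0.28 (limma adjusted p = 0.0546) and 1.38 ± 0.40 (limma adjusted p = 0.100). With limma's intensity trend, an alternative setting, both passed (adjusted p = 0.0207 and 0.0137). Gstm5, at the plus strand end of the cluster, had 983 and 915 on day 4, against 1529 and 1840 on day 1 (-0.82 ± 0.34, limma adjusted p = 0.197, with the trend 0.0260). The median change of the mu class was 5.97, and without it 8 of the remaining 38 members were higher, 3 lower and their median was 0.21.

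The mu class genes are close paralogs, and the probe sets do not all agree. When every probe set was fitted on its own, the other 3 of Gstm1 gave log2 changes on day 4 of 4.63, 5.99 and 7.79, all called by limma. The second probe set of Gstm3 had 174 and 173 in WT mice on day 4, against 8.91 and 3.77 in WT mice on day 1 (4.67 ± 0.46, limma adjusted p = 0.0139), while the chosen one, whose suffix marks probes shared by several transcripts, gave 1.28. The day 1 signals of the second probe set are so low that its fold is uncertain. The second probe set of Gstm7, with signals under 200 on every array, gave only 0.57 ± 0.32 (limma adjusted p = 0.340). The chosen probe set of Gstm1 carries the suffix for probes that may bind other sequences, so signal from its paralogs cannot be told apart. The 2 Gstm1 probe sets without that suffix gave 7.79 and 4.63.

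**Figure D2:**
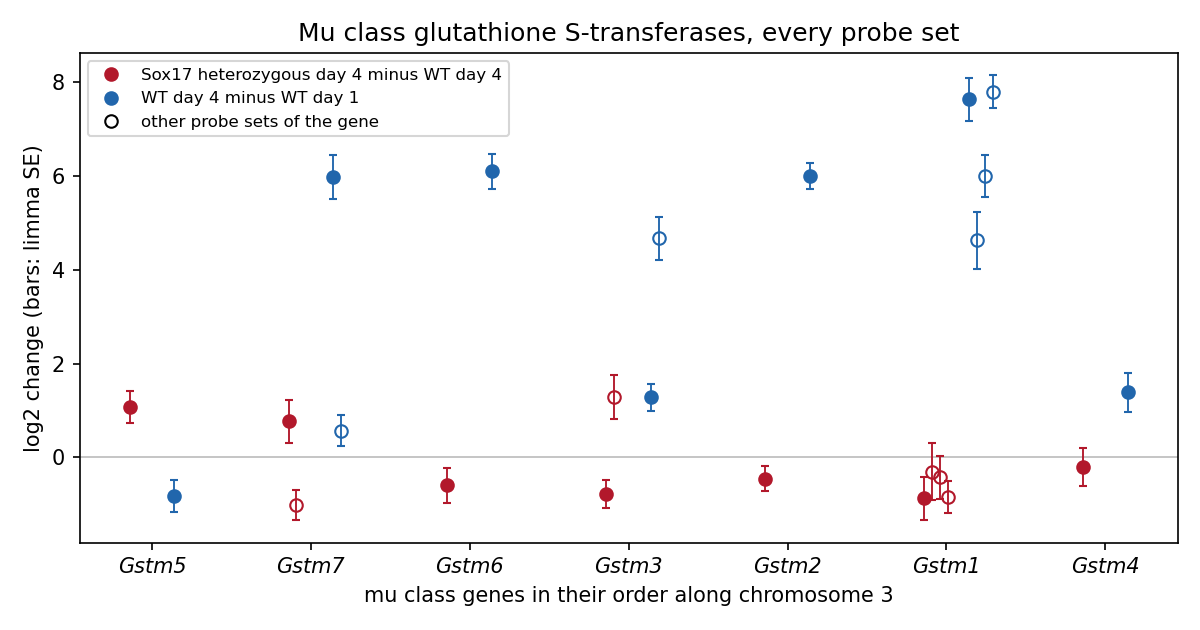
Log2 change of every probe set of the 7 mu class genes, placed in the order of the genes on chromosome 3, for Sox17 heterozygous day 4 minus WT day 4 (red) and WT day 4 minus WT day 1 (blue). Filled points are the chosen probe sets, open points the others, and bars are limma standard errors. The blue points of Gstm1, Gstm2, Gstm6 and Gstm7 reach 5.97 to 7.63 for the chosen probe sets, and that of Gstm5 lies below 0.

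Outside the mu class, 3 of 16 transferases rose. Gsta2, an alpha class enzyme, had 852 and 1137 in WT mice on day 4, against 47.6 and 49.0 in WT mice on day 1 (4.32 ± 0.26, limma adjusted p = 0.00656). Gsta4, which clears aldehydes formed by lipid peroxidation, had 8232 and 10748 on day 4, against 996 and 1987 on day 1 (2.74 ± 0.40, limma adjusted p = 0.0237). Gstp1, the main pi class enzyme, had 11932 and 14191 on day 4, against 3382 and 3854 on day 1 (1.85 ± 0.21, limma adjusted p = 0.0148). Both day 4 arrays lay above both day 1 arrays for these 3 genes, which is weak evidence with 2 arrays a group.

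Of the same 16, 2 fell on day 4. Gstt2, a theta class enzyme, had 516 and 431 in WT mice on day 4, against 4180 and 4587 in WT mice on day 1 (-3.21 ± 0.29, limma adjusted p = 0.00959), a ratio of 0.108. Mgst3, a microsomal transferase, had 702 and 521 on day 4, against 2348 and 1719 on day 1 (-1.73 ± 0.28, limma adjusted p = 0.0294), and its second, dim probe set gave 0.87. Gsto1 and Mgst1, displayed for their high signals, stood at 32702 to 54772 and at 13733 to 18028 over all 6 arrays, and neither passed the test in any of the 3 comparisons. Gsta3, Gstk1, Gsto2, Gstp3, Gstt1, Gstt3, Gstt4, Gstz1 and Mgst2 did not pass in the day comparison either, and Gstt1, Gstt4 and Mgst2 were among the 4 members with a mean signal under 50.

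Of the 8 glutathione peroxidases 1 rose. Gpx2, a selenoenzyme of epithelia best known from the gut, had 2252 and 2355 in WT mice on day 4, against 226 and 355 in WT mice on day 1 (3.02 ± 0.41, limma adjusted p = 0.0201). Its mean signal was 7.93 times as high on day 4. Gpx1, the widespread cytosolic enzyme, had 20717 and 18482 on day 4, against 16715 and 14442 on day 1 (0.33 ± 0.20, limma adjusted p = 0.349). Gpx4, which reduces lipid peroxides in membranes, had 5091 and 6533 on day 4, against 2930 and 3370 on day 1 (0.88 ± 0.23, limma adjusted p = 0.0831).

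Gpx3, the secreted plasma form, had 29.2 and 47.1 in WT mice on day 4, against 296 and 527 in WT mice on day 1, a log2 change of -3.38 ± 0.88 that did not pass (limma adjusted p = 0.0833). Gpx8, of the endoplasmic reticulum, had 939 and 650 on day 4, against 1993 and 1969 on day 1 (-1.34 ± 0.34, limma adjusted p = 0.0782). Gpx5, Gpx6 and Gpx7 peaked at 186, 191 and 240 and did not pass.

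In glutathione synthesis, Gclc, the catalytic subunit of the rate-limiting step, had 2230 and 2440 in WT mice on day 4, against 868 and 1006 in WT mice on day 1 (1.32 ± 0.21, limma adjusted p = 0.0292). The modifier subunit Gclm (0.52 ± 0.21, limma adjusted p = 0.195), Gss (-0.80 ± 0.20, limma adjusted p = 0.0732) and Gsr (-0.40 ± 0.33, limma adjusted p = 0.478) did not pass. Of the enzymes acting on superoxide, peroxide and quinones, 3 of 5 rose. Cat, the peroxisomal catalase, had 2174 and 3136 on day 4, against 326 and 553 on day 1 (2.62 ± 0.36, limma adjusted p = 0.0208). Nqo1, which reduces quinones, had 406 and 283 on day 4, against 51.4 and 88.8 on day 1 (2.31 ± 0.41, limma adjusted p = 0.0360). Sod1, the cytosolic dismutase, had 9917 and 11166 on day 4, against 3716 and 4702 on day 1 (1.33 ± 0.22, limma adjusted p = 0.0308). Its 4 other probe sets gave log2 changes of 0.01 to 3.49, none called at default settings, and both extremes came from dim ones. The brightest other one had 5496 and 7508 on day 4, against 3241 and 3704 on day 1. It changed by 0.89 ± 0.27 (limma adjusted p = 0.1295, with the trend 0.00487). The mitochondrial Sod2 (-0.37 ± 0.19, limma adjusted p = 0.274) and the dim extracellular Sod3 did not pass.

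Among the members of the thioredoxin branch, no gene rose and 1 fell at default settings. Prdx4, the peroxiredoxin of the endoplasmic reticulum, had 924 and 1076 in WT mice on day 4, against 3665 and 3948 in WT mice on day 1 (-1.93 ± 0.24, limma adjusted p = 0.0176), and its 3 other probe sets gave -2.23, -0.41 and -1.06. Cytosolic Prdx2 had 7134 and 7724 on day 4, against 10414 and 9516 on day 1 (-0.42 ± 0.19, limma adjusted p = 0.227), and mitochondrial Prdx3 had 4241 and 4039 on day 4, against 2505 and 2856 on day 1 (0.63 ± 0.22, limma adjusted p = 0.154). Txn1, the cytosolic thioredoxin, had 6544 and 8802 on day 4, against 10050 and 9693 on day 1 (-0.38 ± 0.24, limma adjusted p = 0.364). Its reductase Txnrd1 had 4557 and 5346 on day 4, against 9515 and 8194 on day 1 (-0.84 ± 0.21, limma adjusted p = 0.0750).

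The calls of the day comparison rest on few arrays. Without WT day 1 array 302 or 303, 0 of the 15 remained at limma's default settings, and without another array 6 or 7 of the higher and 1 or 2 of the lower ones did. With a prior that follows signal intensity (limma's trend option), all 15 remained. That setting called 18 members higher and 8 lower (40% and 17.8%), beside 14% and 10.8% of all genes. Higher only with the trend were Gstm3, Gstm4, Gstz1, Gpx4, Gclm and Prdx3. Lower only with the trend were Gstm5, Gpx3, Gpx8, Gss and Txnrd1.

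The heterozygous mice were set against WT mice of the same day to ask how loss of a Sox17 allele bears on these enzymes. At limma's default settings 0 of the 45 genes passed (smallest adjusted p = 0.203), as did 0% of all genes, and 9 members had an unadjusted p under 0.05, 4 of them higher and 5 lower in heterozygous mice, beside 13.2% of all genes. With the intensity trend, an alternative setting, 4 members were higher and 2 lower after adjustment, beside 1.93% and 1.59% of all genes. Those lower were the peroxidases Gpx2 and Gpx1, and those higher were Gclc, Gstt2, Gstt3 and Gstm5. The median change of the members was -0.15, against -0.20 over all genes, and with each array centred on its median it was 0.02, against -0.03. Standard errors below are those of the default fit.

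Gpx2 had 359 and 660 in heterozygous mice, against 2252 and 2355 in WT mice on day 4 (-2.24 ± 0.41, limma adjusted p = 0.203, with the trend 0.00352). Both heterozygous arrays lay far below both WT arrays of day 4 and above the 226 and 355 of WT day 1. It was the one member still called with the trend after each array was centred on its median (limma adjusted p = 0.0332), and its trend adjusted p was 0.00124 to 0.0331 when single arrays were left out. Gpx1 had 10310 and 10855 in heterozygous mice, against 20717 and 18482 in WT mice on day 4 (-0.89 ± 0.20, limma adjusted p = 0.241, with the trend 0.0161). The other peroxidases did not pass under either setting. Among them Gpx4 had 5337 and 4985 in heterozygous mice, against 5091 and 6533 in WT mice on day 4 (-0.16 ± 0.23, limma adjusted p = 0.761).

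Gclc had 4383 and 3720 in heterozygous mice, against 2230 and 2440 in WT mice on day 4 (0.79 ± 0.21, limma adjusted p = 0.281, with the trend 0.0215). Its second probe set changed by 1.06 ± 0.35, with a limma trend adjusted p of 0.0453. Both WT groups lay below the heterozygous arrays, and WT day 1 was the lowest. Gclm, its partner subunit, had 1133 and 1060 in heterozygous mice, against 1544 and 1241 in WT mice on day 4 (-0.34 ± 0.21, limma adjusted p = 0.521).

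Gstt2 had 1145 and 752 in heterozygous mice, against 516 and 431 in WT mice on day 4 (0.97 ± 0.29, limma adjusted p = 0.307, with the trend 0.0317). Gstt3, another theta class enzyme, named here because it passed with the trend after its values were seen, had 1488 and 1752 in heterozygous mice, against 905 and 956 in WT mice on day 4 (0.80 ± 0.21, limma adjusted p = 0.280, with the trend 0.0336). Gstm5 had 2626 and 1516 in heterozygous mice, against 983 and 915 in WT mice on day 4 (1.07 ± 0.34, limma adjusted p = 0.324, with the trend 0.0341). The groups did not overlap for these 3 genes, which is weak evidence with so few arrays a group. The share of all genes without overlap is not given here, and these 3 were already trend calls. The trend calls other than Gpx2 rest on single arrays. Without heterozygous array 253 the limma trend adjusted p was 0.240 for Gpx1, 0.319 for Gclc, 0.377 for Gstt2, 0.185 for Gstt3 and 0.370 for Gstm5. Without heterozygous array 281 it was 0.135 for Gpx1, 0.0870 for Gclc and 0.327 for Gstt3. Without WT day 4 array 277 it was 0.0744 for Gclc, 0.0655 for Gstt2, 0.0904 for Gstt3 and 0.114 for Gstm5, and without array 284 it was 0.0748 for Gstt2 and 0.0791 for Gstm5. After median centring none of the 5 passed with the trend, at 0.121 to 0.561.

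Nqo1 and Gsta3 were lower in heterozygous mice at an unadjusted p under 0.05 and passed under neither setting. Nqo1 had 120 and 180 in heterozygous mice, against 406 and 283 in WT mice on day 4 (-1.21 ± 0.41, limma adjusted p = 0.351, with the trend 0.227). Gsta3 had 15.0 and 30.8 in heterozygous mice, against 87.7 and 51.8 in WT mice on day 4 (-1.60 ± 0.46, limma adjusted p = 0.295, with the trend 0.331), and its second probe set gave -3.43 ± 0.41, with heterozygous signals of 4.24 and 2.24 that leave the size of that change uncertain.

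By their chosen probe sets, the mu class genes that rose on day 4 stayed far above day 1 in heterozygous mice. Gstm1 had 24837 and 25640 in heterozygous mice, against 54580 and 38800 in WT mice on day 4 (-0.87 ± 0.45, limma adjusted p = 0.462, with the trend 0.167). Gstm2 had 38541 and 35675 in heterozygous mice, against 56764 and 45168 in WT mice on day 4 (-0.45 ± 0.25, limma adjusted p = 0.486). For both, the heterozygous arrays lay below the WT arrays of day 4 without passing the test. Gstm7 had 10007 and 5482 in heterozygous mice, against 4173 and 4542 in WT mice on day 4 (0.77 ± 0.46, limma adjusted p = 0.503), while its second, dim probe set gave -1.01 ± 0.32, so its direction depends on the probe set. The same holds for Gstm3, at -0.78 ± 0.28 and 1.29 ± 0.46 in its 2 probe sets.

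The 5 oviduct and ciliated cell markers summed to 22407 and 12515 in heterozygous mice, against 6654 and 9250 in WT mice on day 4. Most of this was Ovgp1, the oviductal glycoprotein, while Dnah5 ran the other way, at 53.5 and 56.5 in heterozygous mice, against 157 and 130 in WT mice on day 4, and Foxj1 and Rsph1 were under 100 on every array. The 10 stromal markers summed to 1136 and 1676 in heterozygous mice, against 2410 and 3248 in WT mice on day 4, and 1 was called lower with the trend. Endothelial, lymphocyte and neutrophil markers summed to 80.1 to 240.5 in heterozygous mice, against 168 to 841 in WT mice on day 4, with the highest sums on array 277. The part of these differences in the changes above was not tested.

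**Figure D3:**
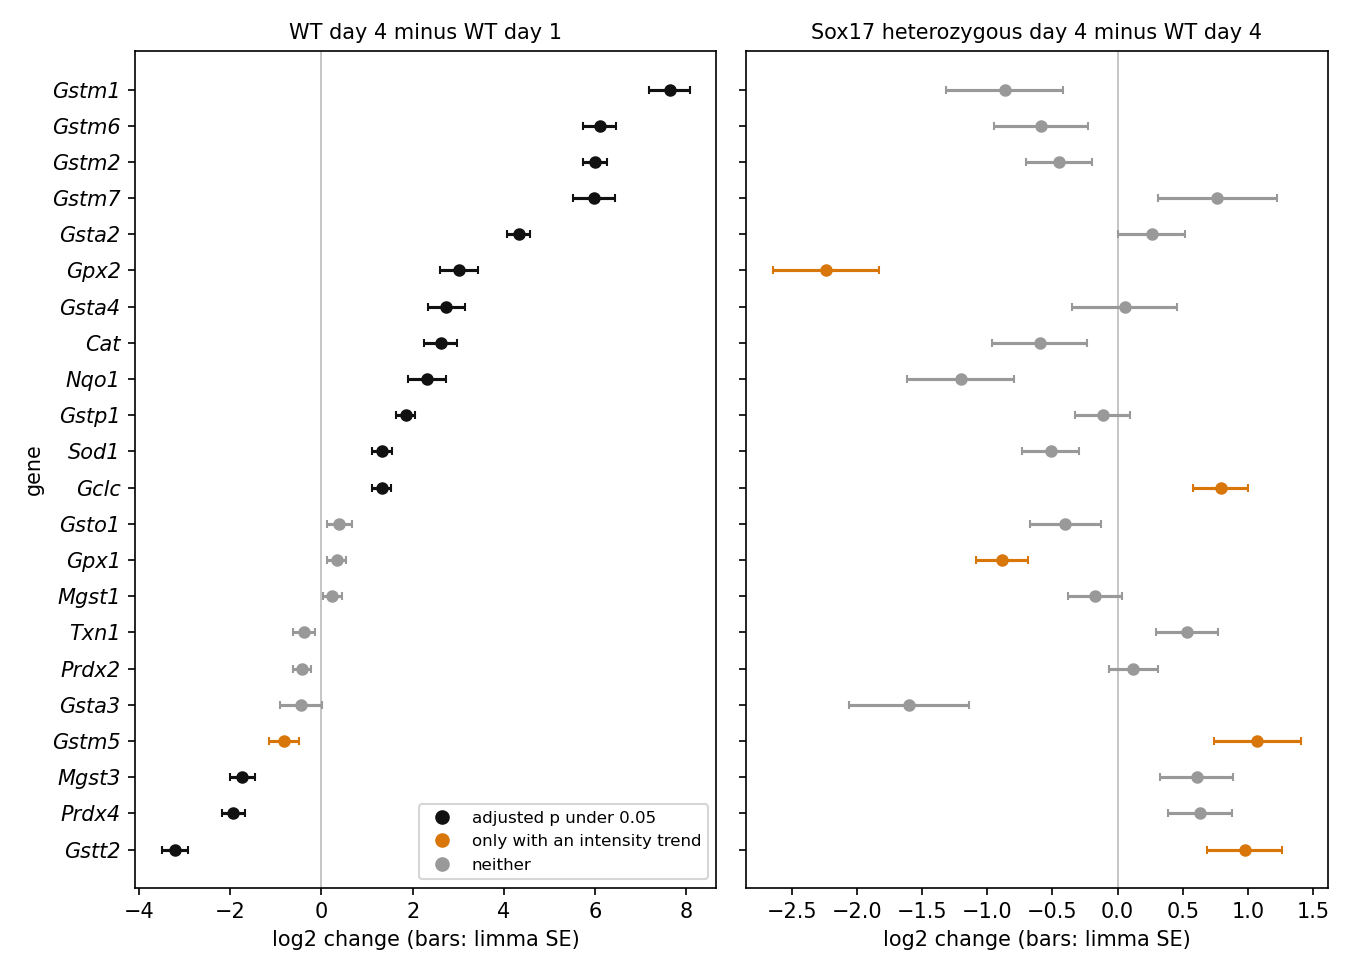
Log2 change, with limma standard errors, of the 22 genes whose values were fixed for display, for WT day 4 minus WT day 1 (left) and Sox17 heterozygous day 4 minus WT day 4 (right, on a narrower axis). Colours mark an adjusted p under 0.05 at default settings, only with the intensity trend, or neither. In the right panel Gpx2 lies lowest, at -2.24, and the 5 coloured points are all trend calls.

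The heterozygous mice were also set against WT mice on day 1, a comparison that shares its arrays with both others and in which genotype and day both differ. Here limma called 9 members higher and 2 lower, beside 5.07% and 4.48% of all genes. The higher ones were Gstm1, Gstm2, Gstm6, Gstm7, Gsta2, Gsta4, Gstp1, Gclc and Cat, and the lower ones Gstt2 and Prdx4. When every probe set was fitted on its own, the second, dim one of Gstm7 did not rise (-0.44 ± 0.32, limma adjusted p = 0.518). It had 86.0 and 64.9 in heterozygous mice, against 127 and 81.6 in WT mice on day 1. The second probe sets of Gsta3 (-5.51 ± 0.41, limma adjusted p = 0.0139) and Gstm3 (5.95 ± 0.46, limma adjusted p = 0.0147) passed, unlike the chosen ones. Low signals in heterozygous mice for Gsta3 and on WT day 1 for Gstm3 leave these folds uncertain. Gstm1 had 24837 and 25640 in heterozygous mice, against 157 and 342 in WT mice on day 1 (6.76 ± 0.45, limma adjusted p = 0.00987), and Gstm2 38541 and 35675 in heterozygous mice, against 689 and 913 in WT mice on day 1 (5.54 ± 0.25, limma adjusted p = 0.00732). Gclc had 4383 and 3720 in heterozygous mice, against 868 and 1006 in WT mice on day 1 (2.11 ± 0.21, limma adjusted p = 0.0163).

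Gpx2, Nqo1, Sod1 and Mgst3 did not pass here at default settings. Gpx2 had 359 and 660 in heterozygous mice, against 226 and 355 in WT mice on day 1 (0.78 ± 0.41, limma adjusted p = 0.333). Nqo1 had 120 and 180 in heterozygous mice, against 51.4 and 88.8 in WT mice on day 1 (1.11 ± 0.41, limma adjusted p = 0.192). Sod1 had a log2 change of 0.82 ± 0.22 (limma adjusted p = 0.101) and Mgst3 one of -1.12 ± 0.28 (limma adjusted p = 0.0860). With the trend Sod1 (limma adjusted p = 0.00404) and Mgst3 (0.00293) passed, and Gpx2 (0.101) and Nqo1 (0.148) did not. The test of whether these genes differ from WT mice on day 4 is the comparison above, which passed with the trend for Gpx2 and did not pass for Nqo1, Sod1 and Mgst3. Without WT day 1 array 302 or 303, or without either heterozygous array, 0 of the 11 calls remained at default settings, and all 11 remained with the trend.

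Neighbouring pathways were described with 5 lists of genes that are not members. In WT mice on day 4 against WT mice on day 1, glutathione turnover and transport had 6 of 25 measured genes higher and 3 lower (limma adjusted p under 0.05), with a median log2 change of 0.89. That is 24% and 12%, beside 7.58% and 5.73% of all genes. Ggt6, of the gamma-glutamyltransferases that degrade glutathione outside the cell, had 1697 and 1824 on day 4, against 52.2 and 66.9 on day 1 (4.87 ± 0.24, limma adjusted p = 0.00583). Cth, which makes cysteine from cystathionine, had 1271 and 1285 on day 4, against 47.2 and 97.0 on day 1 (4.22 ± 0.40, limma adjusted p = 0.0104). Chac2, which cleaves glutathione in the cytosol, had 819 and 1051 on day 4, against 5563 and 3925 on day 1 (-2.33 ± 0.29, limma adjusted p = 0.0168), and the leucine aminopeptidase Lap3 2241 and 1832 on day 4, against 7350 and 8930 on day 1 (-2.00 ± 0.24, limma adjusted p = 0.0159).

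The thioredoxin and glutaredoxin list had 5 of 22 genes higher (22.7%) and 2 lower (9.09%). Srxn1, which repairs overoxidised peroxiredoxins, changed by -2.21 ± 0.23 (limma adjusted p = 0.0118), and the sestrins Sesn1 and Sesn2 by 2.11 ± 0.28 and 2.14 ± 0.31 (limma adjusted p = 0.0188 and 0.0237). NRF2 is the transcription factor that drives many of these enzymes, and of 31 of its regulators and other targets 3 were higher (9.68%) and 6 lower (19.4%), with a median of -0.15. Ptgr1, a prostaglandin and alkenal reductase, changed by 4.92 ± 0.28 (limma adjusted p = 0.00626), the carbonyl reductase Cbr3 by -2.73 ± 0.28 (limma adjusted p = 0.0121) and Bach1, a repressor of NRF2 targets, by -2.73 ± 0.31 (limma adjusted p = 0.0152). The selenoprotein list had 2 of 21 genes higher (9.52%) and 1 lower (4.76%), near the shares over all genes. Of the 35 calls in the 5 lists, 0 remained at default settings without WT day 1 array 302 or 303, and 34 remained with the trend without either.

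Of 21 sources of reactive oxygen, 1 was higher (4.76%) and 6 lower (28.6%) on day 4. Log2 changes in this list ran from -7.65 to 6.76, with a median of -0.01. Noxo1, the organiser of the NADPH oxidase Nox1, had 9.32 and 16.1 in WT mice on day 4, against 2302 and 3074 in WT mice on day 1 (-7.65 ± 0.34, limma adjusted p = 0.00553), and its day 4 signals are so low that its fold is uncertain. Cyba, the membrane subunit shared by several of these oxidases, had 1319 and 1251 on day 4, against 14043 and 14904 on day 1 (-3.49 ± 0.24, limma adjusted p = 0.00754). Ero1a, the oxidase of protein folding in the endoplasmic reticulum, had 746 and 586 on day 4, against 10868 and 8000 on day 1 (-3.82 ± 0.27, limma adjusted p = 0.00764). Xdh, xanthine dehydrogenase, changed by -2.42 ± 0.20 (limma adjusted p = 0.00906). Ero1a and Prdx4, which act in the same compartment, were both lower on day 4.

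**Figure D4:**
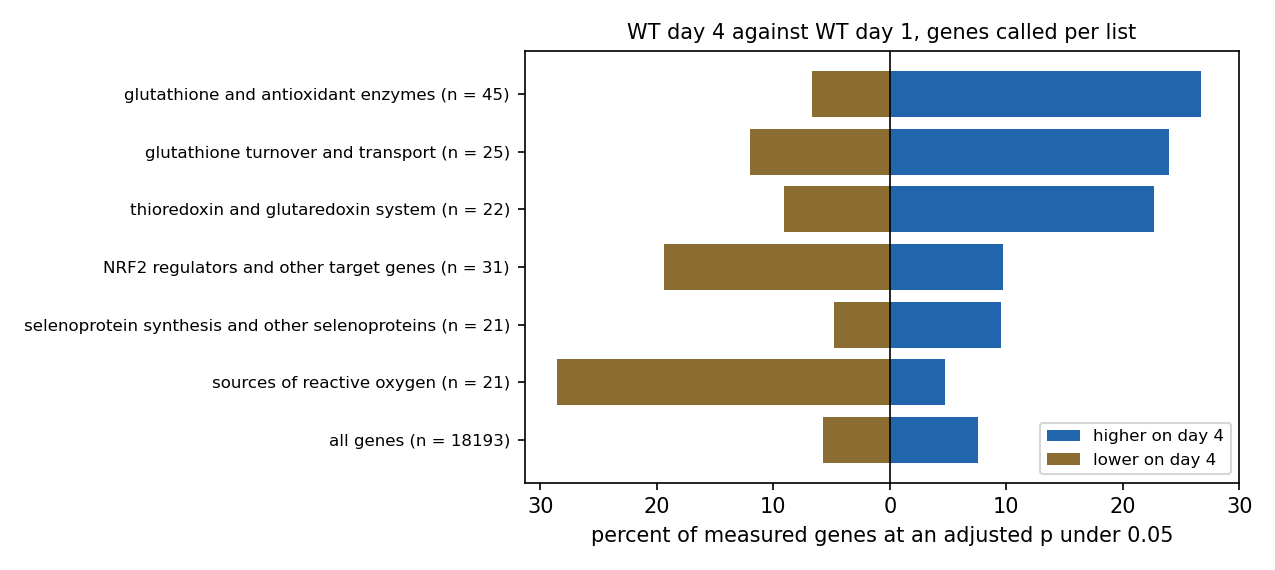
Percent of measured genes called higher (right, blue) or lower (left, brown) in WT day 4 against WT day 1 at a limma adjusted p under 0.05, for the 45 enzymes, the 5 neighbouring lists and all 18193 genes. The enzymes have 26.7% higher and 6.67% lower, and the sources of reactive oxygen 4.76% higher and 28.6% lower.

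Between heterozygous and WT mice on day 4, 0 genes of the 5 lists passed at default settings. With the trend, 3 higher and 2 lower genes were called for turnover and transport, 2 and 2 for thioredoxin and glutaredoxin, 2 and 1 for NRF2, 0 and 0 for selenoproteins and 1 and 1 for sources of reactive oxygen. These lists hold 25, 22, 31, 21 and 21 genes, and over all genes 1.93% were higher and 1.59% lower with the trend. Ggt6 had 391 and 474 in heterozygous mice, against 1697 and 1824 in WT mice on day 4 (-2.03 ± 0.24, limma adjusted p = 0.151, with the trend 0.00326), and Cbs, which makes cystathionine, 219 and 68.3 in heterozygous mice, against 1037 and 1371 in WT mice on day 4 (-3.27 ± 0.67, limma adjusted p = 0.221, with the trend 0.00943). Srxn1 had 668 and 682 in heterozygous mice, against 258 and 331 in WT mice on day 4 (1.20 ± 0.23, limma adjusted p = 0.209, with the trend 0.0106), and the cystine transporter Slc7a11, an importer of the precursor of glutathione, 733 and 536 in heterozygous mice, against 274 and 138 in WT mice on day 4 (1.68 ± 0.42, limma adjusted p = 0.259, with the trend 0.0304). Ugdh, the UDP-glucose dehydrogenase, had 1121 and 1129 in heterozygous mice, against 3019 and 3063 in WT mice on day 4 (-1.43 ± 0.18, limma adjusted p = 0.153, with the trend 0.000587). Lap3 and Chac2, which fell between the days in WT mice, were also higher with the trend. Lap3 changed by 1.03 ± 0.24 (limma adjusted p = 0.241, with the trend 0.00894) and Chac2 by 1.13 ± 0.29 (0.268 and 0.0125). In the NRF2 list Ephx1 changed by 1.08 ± 0.21 (0.214 and 0.00884) and Cbr3 by 1.41 ± 0.28 (0.2195 and 0.0269). With median centring the limma trend adjusted p was 0.133 for Lap3, 0.160 for Chac2, 0.0926 for Ephx1 and 0.04996 for Cbr3. Each of these trend calls, that of Cbr3 included, was lost when some single array was left out. For Ggt6, Cbs, Srxn1, Slc7a11 and Ugdh the groups did not overlap, which is weak evidence with 2 arrays a group. With single arrays left out, the limma trend adjusted p of Ugdh stayed between 0.000618 and 0.0117, while the largest was 0.0656 for Ggt6, 0.0514 for Cbs, 0.134 for Srxn1 and 0.370 for Slc7a11. With each array centred on its median, the limma trend adjusted p was 0.105 for Ugdh and 0.121 for Srxn1, which did not pass, and 0.0409 for Ggt6, 0.0267 for Cbs and 0.0321 for Slc7a11.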

How the data were processed

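RNA of peeled uterine epithelium was amplified, labelled with biotin and hybridised to 1 array per sample, per the labels' protocols. The values deposited by the authors are an intensity per probe set, linear in scale. The submitters' processing notes name Affymetrix Expression Console, Transcriptome Analysis Console and RMA, with no versions or roles. The values are not on RMA's log2 scale: every array's mean after trimming 2% at each end was 500. No detection calls were used, and signals under 50 are treated as low.

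Of 45101 probe sets, 34945 had 1 gene symbol in the platform annotation, 932 several and 9160 none, besides 64 controls. Those with 1 symbol were used, 1 per gene, as log2(signal + 1) with no filter. Changes of dim genes depend on the added value: between the days in WT mice Gstm6 changed by 6.10, and by 3.40 with a pseudocount of 32. No 2 arrays were identical. A limma 3.58.1 model (R 4.3.3) of the 6 arrays had 1 coefficient per group, 3 residual degrees of freedom and default eBayes, with Benjamini-Hochberg adjustment over 18193 genes, and calls were made at an adjusted p under 0.05. The fit was tested on simulated data. Signals per array were given for members called in any comparison (at most 20), members past an unadjusted p of 0.05 with a log2 change of at least 1 and no overlap between heterozygous and WT arrays of day 4, and the 6 brightest, 22 in all; other values in the text were chosen after they were seen. Alternatives were an intensity trend, median centring, quantile normalization, a pseudocount of 32, a mean signal of at least 50, the mean of probe sets, the 4 arrays compared alone, and leaving out each array. The members and lists were chosen with earlier results of these data known. Promoters came from RefSeq tables of GRCm38.p6.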

Additional observations from a re-analysis of the deposited data

How the results depend on the processing

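The 15 calls between the days in WT mice and the 11 of heterozygous mice against WT day 1 kept their direction under every alternative run, while many lost significance. Without 1 array, members called in WT day 4 against WT day 1 numbered 0 to 7 higher and 0 to 2 lower, against 12 and 3, and in heterozygous mice against WT day 1 0 to 8 and 0 to 1, against 9 and 2. With the intensity trend, 14% of all genes were called higher and 10.8% lower in the first comparison. In heterozygous mice against WT day 1 these shares were 11.7% and 9.65%. Member counts with the trend were 18 and 8 in the first comparison and 16 and 9 in heterozygous mice against WT day 1. In heterozygous mice against WT day 4 they were 4 and 2, against 0 and 0. With the trend and 1 array left out, they were 14 to 19 and 5 to 9, 11 to 17 and 4 to 10, and 0 to 4 and 1 to 3. With the trend and each array centred on its median, which was chosen after seeing the data as was leaving out arrays under the trend, 5 were lower in both comparisons with WT day 1, and 1 (Gpx2) was lower against WT day 4. A pseudocount of 32 gave 7 lower between the days in WT mice and 9 lower in heterozygous mice against WT day 1, and a mean signal of at least 50 gave 7 lower in both. With only the 4 arrays compared, 6 were higher and 1 lower between the days in WT mice, and 1 was lower in heterozygous mice against WT day 1; centring on the median also left 1 lower there. Centring cost the calls of Cat, Sod1, Gstp1 and Gclc between the days, and the mean of probe sets those of Sod1, Mgst3, Gclc and Prdx4. The median change of the members in heterozygous mice against WT day 4 turned to 0.0183 after centring, with or without the trend, against -0.15; the median of all genes was -0.03 there and 0.10 between the days after centring, against -0.20 and 0.30. The cause was not tested. No paired analysis was possible because the groups share no replicate numbers. With 2 arrays a group, small differences cannot be seen, and dim genes (Gstm6 and the second Gstm3 probe set on day 1, Gpx3, Gsta3, Noxo1 on day 4) have uncertain folds.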
